A study of Mus musculus with 12 samples.

Results

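The genes described here are those of the potassium channel alpha subunits and their relatives in mouse cerebellum. They were taken by symbol, as every protein-coding gene named Kcn with a subfamily letter from a to l or from o to v and a number, without Kcnj10, Kcnj13 and Kcne2. The rule gave 74 of the 56941 genes in the count tables, in 15 subfamilies, and used no measured value. The calcium-activated Kcnm and Kcnn channels fall outside it. Total RNA of the cerebellum of 12 mice was sequenced after depletion of ribosomal RNA, with 3 mice in each of 4 groups. SCA1 mice carried 1 knock-in Atxn1 allele with an expanded CAG repeat beside a normal one (heterozygous), which models spinocerebellar ataxia type 1, and WT mice were their littermates without it, on C57BL/6J. The knock-in is carried in every cell that expresses Atxn1, not in Purkinje cells alone. Exercise mice lived alone with a running wheel for 12 weeks, from 4 to 16 weeks of age, while sedentary mice lived in groups without a wheel, so that the wheel and the housing cannot be told apart. The wheels were taken away before the behavioral tests that preceded tissue collection. Mice of all 4 groups, sedentary ones included, were 16 weeks old at the end of the wheel period.

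Potassium channels let potassium ions leave the neuron, which sets the resting potential, ends each action potential and limits repetitive firing. Most voltage-gated (Kv) channels are assemblies of 4 alpha subunits that each contribute 1 stretch of the pore, whereas a tandem-pore-domain (K2P, Kcnk) subunit carries 2 such stretches and the channel is a dimer. Kv6, Kv8 and Kv9 subunits (Kcng, Kcnv, Kcns) form no channel alone and join Kv2 subunits (Kcnb). Purkinje cells, the output neurons of the cerebellar cortex, depend on the fast Kv3 channels (Kcnc) for their brief spikes, and granule cells are known for Kv4 (Kcnd) A-type currents and for K2P leak currents.

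The feature most of these genes share beyond their symbols is the selectivity filter, the short loop that lets potassium pass. Its coding sequence is shown for 6 members picked from those named in the genotype comparison below. It runs 5′ to 3′ in the sense of the gene, with the codons of the filter in capitals and its neighbours in lower case (GRCm39, GENCODE M39, the transcript with the longest coding sequence).
Kcnb2 (chr1:15780264-15780290, plus strand, 1 coding exon): atgaccACTGTGGGCTACGGTgacatt
Kcng4 (chr8:120352643-120352669, minus strand, 1 coding exon): atgacgACCGTGGGCTATGGGgacatg
Kcnd2 (chr6:21217399-21714146, plus strand, split by an intron): atgacaACACTGGGGTATGGCgacatg
Kcnj11 (chr7:45748914-45748940, minus strand, 1 coding exon): caggtgACCATTGGTTTCGGCgggcgc
Kcnk2, filter 1 (chr1:188991082-189027803, minus strand, split by an intron): atcacaACCATAGGATTTGGAaacatc
Kcnk2, filter 2 (chr1:188988772-188988798, minus strand, 1 coding exon): ctgacgACCATTGGATTTGGAgactac
Kcnk10, filter 1 (chr12:98456311-98462464, minus strand, split by an intron): atcacaACCATAGGGTATGGGaatatt
Kcnk10, filter 2 (chr12:98406858-98406884, minus strand, 1 coding exon): ctgaccACAGTAGGCTTTGGTgatttt
The potassium channel signature sequence was found in the coding sequence of 70 of the 74 members, once in 56 and 2 times in 14, all of the latter Kcnk genes. The 4 members without it were the Kcne genes, whose products are small auxiliary subunits and form no pore. The longest run of bases that any of these 6 genes shared with another member was 42, against reads of 151 bases. Of all members only Kcnk4 had exons overlapping another gene on the same strand, Catsperz, over 12.2% of its exon length.

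Each library held between 20556802 and 32127508 pairs counted on genes on the sense strand. Values are counts per 1e6 of library size (CPM), or CPM per kb of exon where genes are compared with each other. The library size is the sum of these pairs over the genes that passed a filter on low counts, scaled by the TMM normalization factor of the library. SCA1 sedentary mouse 16 and SCA1 exercise mouse 55 stood apart. Pairs mapping to several places made up 6.38% and 6.33% of their libraries and 2.08% to 3.46% of the others. The summed level of 8 brainstem markers, including the hindbrain position genes Hoxa5 and Hoxb5 and the cholinergic genes Chat and Slc18a3, was 61.0 CPM in mouse 16, 40.5 CPM in mouse 55 and at most 5.35 CPM in the other 10, and Slc18a3 was at 0 in 9 of those 10. The summed level of 10 granule cell markers was lowest in the same pair, 3624 CPM in mouse 16 and 4829 CPM in mouse 55, against 6126 to 7464 CPM elsewhere. The tests between genotypes are therefore given with and without these libraries for the members described; the part of the tissue taken in its values was not tested. The labels give no sex, and transcripts of chromosome Y genes were near 0 in 1 WT exercise, 1 SCA1 sedentary and 2 SCA1 exercise mice and present in all WT sedentary mice.

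The cerebellum held few of the channel genes at high levels. On the scale of CPM per kb, as means of 12 libraries, 21 members were above 10, 17 lay from 1 to 10 and 36 were below 1. The 5 highest made up 51.5% of the summed level of all 74 and the 10 highest 72.5%. Among the high ones Kcnc1, which encodes a Kv3 channel of fast-firing neurons, stood at 78.8 CPM per kb. Kcna1, a Kv1 subunit of axons and basket cell terminals and the gene of episodic ataxia type 1, stood at 69.3 CPM per kb and Kcnd2, the main Kv4 subunit of granule cells, at 65.8. Kcnt1, a sodium-activated channel, reached 53.4 CPM per kb and Kcnk1, a K2P channel also called TWIK-1, 44.2. The neighbours Kcna1 and Kcnd2 did not keep this order in every group. Kcna1 was at 69.0 ± 5.18 and Kcnd2 at 75.0 ± 2.42 CPM per kb in WT sedentary mice (SD, n = 3), and in SCA1 sedentary mice Kcna1 was at 69.3 ± 2.76 and Kcnd2 at 54.4 ± 13.3 (SD, n = 3).

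**Figure D1:**
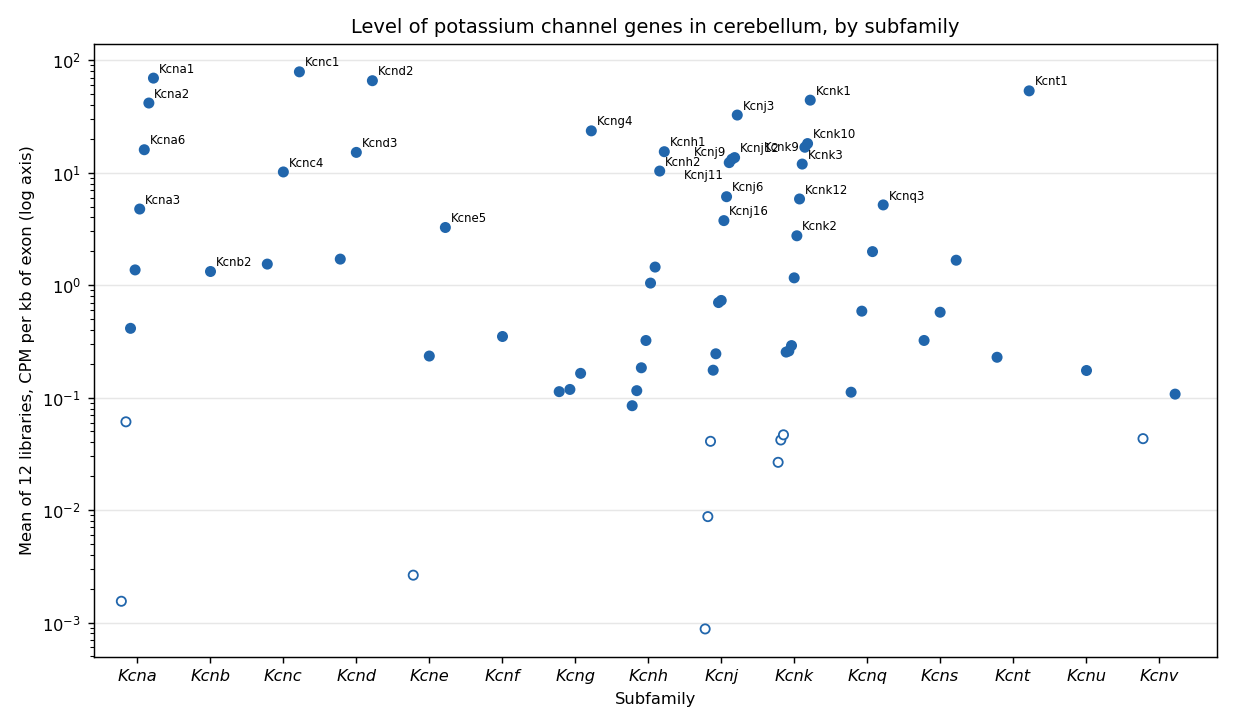
Level of the members by subfamily, as the mean of 12 libraries in CPM per kb of exon on a log axis. Filled points are members that passed the filter on low counts and open points the others, without the 2 members at 0 counts and 3 tested members that are not reported here. Kcnc1 is plotted at 78.8 and Kcna1 at 69.3 CPM per kb, and the Kcnf, Kcns, Kcnu and Kcnv genes lie below 5.

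Of the subfamilies whose members are all reported here, the 8 Kcna genes made up 17.5% of the summed CPM per kb of all 74 members, the 14 Kcnk genes 13.4%, the 13 Kcnj genes 10.95%, the 3 Kcnd genes 10.9% and the 2 Kcnt genes 7.05%. The 3 Kcnd genes together stood at 91.8 ± 0.930 CPM per kb in WT sedentary mice and 90.7 ± 1.23 in WT exercise mice. They stood at 70.5 ± 14.4 CPM per kb in SCA1 sedentary mice and at 77.5 ± 11.4 in SCA1 exercise mice (SD, n = 3 in each group). Mice 16 and 55 were at 54.7 and 65.1 CPM per kb and the other 4 SCA1 mice at 73.5 to 87.6, against 89.3 to 92.5 in WT mice. The spread within both SCA1 groups was thus larger than that within both WT groups for this subfamily.

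For 12 of the 74 members the counts were too low to be tested, with at most 58 counts in any library, and Kcne3 and Kcnk16 had 0 counts in every library. The other 62 were tested with 20341 genes in all. A differentially expressed gene (DEG) is one with an adjusted p under 0.05 and an absolute log2 fold change (log2FC) over 0.5, from edgeR's quasi-likelihood test with Benjamini-Hochberg adjustment over all genes tested. Since a filter on low counts can pass a gene through the group where it is high, the counts below describe the members that passed and not all 74.

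The first question was how the members differed between SCA1 and WT cerebellum. Over both activity groups, 6 SCA1 mice against 6 WT mice, Kcnb2 was at 37.6 against 19.7 CPM and Kcnk2 at 16.1 against 11.4, while Kcnd2, Kcnj11 and Kcnk10 were lower in every SCA1 mouse than in any WT mouse. None of the 62 members was a DEG, where 0.118% of all tested genes were. With DESeq2 on the same 12 libraries Kcnb2 and Kcnh3 were DEGs, where 0.51% of the genes tested were. By edgeR, 9 members (14.5%) had an unadjusted p under 0.05 and were higher in SCA1 mice, against 5.56% of all genes, and 7 (11.3%) were lower, against 4.25%. The groups did not overlap, with SCA1 mice higher, for Kcnb2 and Kcnk2, against 0.354% of all genes, and with SCA1 mice lower for Kcnd2, Kcnj11 and Kcnk10, against 0.816%. The median absolute log2FC was 0.26 over the members and 0.13 over all genes tested by edgeR. With DESeq2 these medians were 0.312 and 0.257. Without mice 16 and 55 they were 0.175 and 0.114 by edgeR.

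Between sedentary mice alone, 0 members were DEGs by edgeR, where 0.0344% of all genes were. Kcnb2, Kcng4 and Kcnk2 were DEGs by DESeq2, where 0.572% of the genes tested were. An unadjusted p under 0.05 was found for 7 members that were higher in SCA1 mice, against 5.55% of all genes, and for 4 that were lower, Kcnd2, Kcng4, Kcnj11 and Kcnk10, against 4.55%. SCA1 sedentary mice lay above all WT sedentary mice for 5 members (Kcna5, Kcnb2, Kcnd1, Kcnk2 and Kcnk5; 8.06%, against 5.6% of all genes) and below them for 5 (Kcnd2, Kcng4, Kcnh3, Kcnj11 and Kcnk10; 8.06%, against 5.76%), shares not far from those of all genes. Between exercise mice, 0 members and 0% of all genes were DEGs by edgeR, and 0 members and 0.00854% of the genes tested were by DESeq2. Kcnb2 and Kcnk2 were higher in SCA1 exercise mice at an unadjusted p under 0.05, where 1.45% of all genes were, and Kcnh3 was lower, where 1.48% were. The exercise groups did not overlap, with SCA1 mice higher, for Kcna5, Kcnb2, Kcnk1, Kcnk2 and Kcnq3 (8.06%, against 7.32% of all genes) and, with SCA1 mice lower, for 6 members (9.68%, against 6.92%), Kcnc1, Kcnd2, Kcnd3, Kcnj9, Kcnj11 and Kcnk10.

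The sedentary and the exercise comparison share no mouse, so the direction in one is independent of that in the other as far as the libraries go. Of the 62 members, 49 (79.0%) had the same direction in both, 34 of them higher with SCA1 and 15 lower, and 59.5% of all genes tested did. Each comparison holds 1 of the libraries that stood apart, however. Without mice 16 and 55 the share was 42 of 61 members (68.9%), and 45.4% of all genes.

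**Figure D2:**
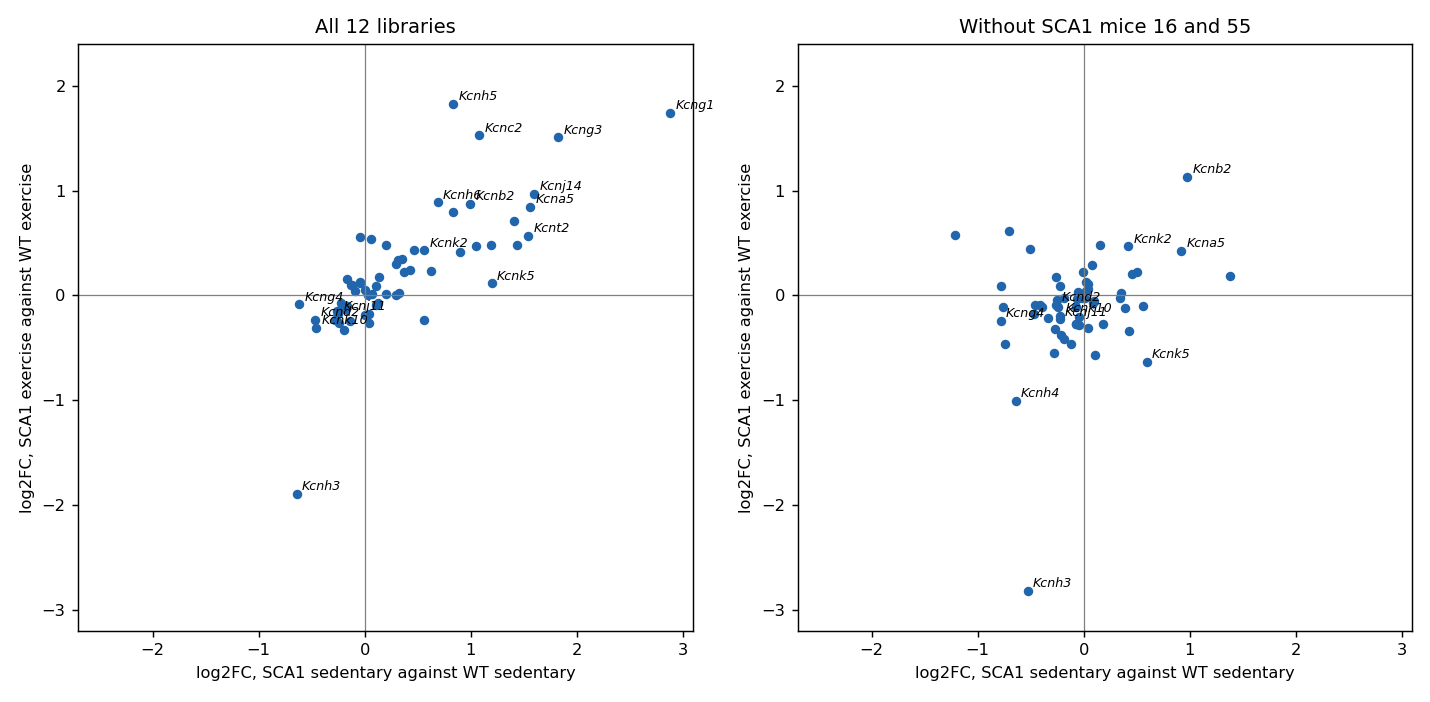
Log2FC of each tested member between SCA1 and WT mice, sedentary on the horizontal and exercise on the vertical axis, with all 12 libraries on the left and without SCA1 mice 16 and 55 on the right. Kcnb2 and Kcnk2 lie in the upper right of both panels and Kcnh3 at the lower left, while Kcng1, at the far upper right with all libraries, was not tested without that pair.

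Kcnb2 encodes Kv2.2, a delayed rectifier channel, and lies on chromosome 1 from 15356816 to 15793974. It stood at 1.33 CPM per kb as the mean of 12 libraries. It had the smallest p of all members in the genotype comparisons. Its level was 17.7, 19.4 and 20.5 CPM in WT sedentary mice and 21.9, 17.4 and 20.97 CPM in WT exercise mice. It was 40.4, 30.9 and 43.6 CPM in SCA1 sedentary mice (16, 194 and 195) and 23.5, 51.2 and 35.9 CPM in SCA1 exercise mice (55, 122 and 198). Every SCA1 mouse lay above every WT mouse, with mouse 55 closest to them. Over both activity groups the log2FC was 0.94 (SE 0.163, unadjusted p = 8.62e-05, adjusted p = 0.0534 with edgeR), just short of the threshold. The exact permutation test of the genotype within activity groups gave p = 0.005 (two-sided, n = 6 against 6), the smallest it can give. Any member whose genotypes do not overlap gets this value, so here and below it only restates the lack of overlap. With mice 16 and 55 left out the log2FC was 1.05 (adjusted p = 0.00066 with edgeR) and the gene was a DEG, and it was one between sedentary mice (0.97, adjusted p = 0.0194) and between exercise mice (1.13, adjusted p = 0.0154).

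Kcng4 encodes Kv6.4, a silent subunit that joins Kv2 channels, and lies on chromosome 8 from 120349688 to 120362762. Its level was 147, 164 and 157 CPM in WT sedentary mice, 144, 131 and 118.5 CPM in WT exercise mice, 126, 91.6 and 87.4 CPM in SCA1 sedentary mice and 151, 105 and 115 CPM in SCA1 exercise mice. SCA1 sedentary mice lay below all WT sedentary mice, and mouse 16 and mouse 55 were the highest of their groups. Between sedentary mice the log2FC was -0.62 (SE 0.159, unadjusted p = 0.00201, adjusted p = 0.239 with edgeR). After removal of mice 16 and 55 it was -0.78 (SE 0.0940, adjusted p = 0.00251 with edgeR) and Kcng4 was a DEG. It was one over both activity groups as well, at -0.51 (adjusted p = 0.00133 with edgeR), against -0.35 (adjusted p = 0.333) with all 12 libraries. The other 3 Kcng genes, Kcng1, Kcng2 and Kcng3, stood below 0.2 CPM per kb. They were highest in mice 16 and 55, with Kcng1 at 5.76 and 1.71 CPM there and at 0.467 CPM or less in the other 10 libraries.

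Kcnk2 and Kcnk10 encode the K2P channels TREK-1 and TREK-2, background channels that respond to stretch, lipids and temperature, and they stood on opposite sides of 0 in the genotype comparison. Kcnk2, on chromosome 1 from 188940126 to 189134470, was at 10.9, 11.9 and 11.6 CPM in WT sedentary and 10.7, 12.2 and 11.2 CPM in WT exercise mice, and at 20.6, 13.7 and 16.5 CPM in SCA1 sedentary and 14.6, 14.8 and 16.6 CPM in SCA1 exercise mice. All 6 SCA1 mice lay above all 6 WT mice. The log2FC over both activity groups was 0.50 (SE 0.107, adjusted p = 0.12 with edgeR; exact permutation p = 0.005, the smallest possible). The fit without mice 16 and 55 gave 0.44 (adjusted p = 0.0317 with edgeR), under the limit of 0.5 on the log2FC.

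Kcnk10, on chromosome 12 from 98395696 to 98544569, was at 182, 180 and 176 CPM in WT sedentary and 181, 173 and 187 CPM in WT exercise mice. It was at 89.2, 145 and 158 CPM in SCA1 sedentary and 125, 167 and 146 CPM in SCA1 exercise mice, all below the WT mice and lowest in mice 16 and 55. The log2FC was -0.38 (SE 0.123, adjusted p = 0.347 with edgeR; exact permutation p = 0.005, the smallest possible), and without that pair it was -0.21 (SE 0.0597, adjusted p = 0.135 with edgeR). Among the other K2P genes, Kcnk9 (TASK-3), Kcnk3 (TASK-1), both leak channels of granule cells, and Kcnk1 (TWIK-1) overlapped between genotypes. Kcnk9 was between 184 and 238 CPM in WT mice and between 173 and 297 CPM in SCA1 mice, with mouse 55 the lowest. Its log2FC was 0.17 (adjusted p = 0.629 with edgeR) and 0.33 without mice 16 and 55 (adjusted p = 0.0356 with edgeR).

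Kcnd2 encodes Kv4.2 and lies on chromosome 6 from 21214866 to 21729804. It was at 419, 438 and 446 CPM in WT sedentary and 414, 427 and 414 CPM in WT exercise mice, at 228, 342 and 375 CPM in SCA1 sedentary and at 284, 408 and 374 CPM in SCA1 exercise mice. All SCA1 values lay below all WT values, with mice 16 and 55 lowest. The log2FC over both activity groups was -0.35 (SE 0.121, adjusted p = 0.373 with edgeR; exact permutation p = 0.005, the smallest possible) and -0.17 (SE 0.0595, adjusted p = 0.235 with edgeR) without that pair. Kcnd3, encoding Kv4.3, was at 134 to 181 CPM in WT and 123 to 165 CPM in SCA1 mice (log2FC -0.19, adjusted p = 0.515 with edgeR; -0.12 without that pair). Kcnd1, the low Kv4 gene at 1.70 CPM per kb, was highest in mice 16 and 55 at 15.8 and 12.4 CPM, against 7.03 to 9.43 CPM in the others.

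The cytosolic partners of Kv4 channels are the KChIP proteins, which bind its amino-terminal end and set how much reaches the membrane. Their genes belong to a list of 20 accessory and partner genes of the channels, none of them a member. Kcnip4 was at 118 ± 6.16 CPM in WT sedentary mice and 118 ± 5.58 CPM in WT exercise mice, and at 68.6 ± 11.5 CPM and 82.6 ± 7.61 CPM in the SCA1 groups of the same order (SD, n = 3). Its lowest WT value, 111 CPM, lay above its highest SCA1 value, 89.6 CPM. It was a DEG over both activity groups (log2FC -0.65, SE 0.0842, adjusted p = 0.0181 with edgeR) and also without mice 16 and 55 (-0.59, adjusted p = 0.00151 with edgeR). Kcnip1 had a log2FC of -0.38 with all libraries (adjusted p = 0.222 with edgeR) and -0.49 without that pair (adjusted p = 0.00862 with edgeR). The other KChIP genes did not share this. Kcnip3 was at 85.7 ± 11.1 and 76.75 ± 3.90 CPM in WT sedentary and WT exercise mice, and at 81.2 ± 4.00 and 73.3 ± 6.135 CPM in the SCA1 groups. The low Kcnip2 was at 3.86 ± 3.585, 1.89 ± 0.677, 4.32 ± 4.28 and 3.39 ± 1.88 CPM in the same order (SD, n = 3). Of the 20 genes, 3 were higher and 3 lower at an unadjusted p under 0.05 over both activity groups, Kcnip4 was the 1 DEG, and the median log2FC was -0.03. Without the 2 libraries 3 were higher and 4 lower.

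Kcnj11 encodes Kir6.2, the pore of the ATP-sensitive potassium channel that links firing to the energy state of the cell, and lies on chromosome 7 from 45743377 to 45750188. It was at 48.2, 49.2 and 49.2 CPM in WT sedentary, 49.8, 47.6 and 47.2 CPM in WT exercise, 40.6, 42.0 and 40.4 CPM in SCA1 sedentary and 46.4, 43.3 and 38.4 CPM in SCA1 exercise mice. Every SCA1 mouse lay below every WT mouse, though mouse 55 by less than 1 CPM. The log2FC was -0.21 (SE 0.0639, adjusted p = 0.286 with edgeR; exact permutation p = 0.005, the smallest possible) and -0.23 without mice 16 and 55 (adjusted p = 0.144 with edgeR). Of the 6 members named with sequences it was the one whose value moved least when that pair was left out. Abcc8, the gene of its regulatory partner SUR1, was at 117 to 155 CPM in WT sedentary and 110.3 to 153.6 CPM in WT exercise mice. It was at 55.3, 145 and 109 CPM in SCA1 sedentary and 87.4, 92.0 and 95.7 CPM in SCA1 exercise mice (log2FC -0.46, SE 0.185, adjusted p = 0.451 with edgeR; -0.28 without that pair).

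The G protein-gated channels (GIRK) are built from the products of Kcnj3, Kcnj6 and Kcnj9, and their genes differed in direction. Kcnj9 was at 134 to 147 CPM in WT mice and at 91.8 to 139.9 CPM in SCA1 mice (log2FC -0.25, SE 0.0877, adjusted p = 0.386 with edgeR; -0.17 without mice 16 and 55). Kcnj3 was at 175 to 188 CPM in WT mice. It was at 153 and 149 CPM in mice 16 and 55 and at 177 to 221 CPM in the other 4 SCA1 mice, with a log2FC of 0.04 with all libraries and 0.19 (adjusted p = 0.183 with edgeR) without that pair. Kcnj6 behaved alike, with a log2FC of 0.01 and 0.19 (adjusted p = 0.338 with edgeR) in these fits. Kcnj12, a strong inward rectifier, was lowest in mice 16 and 55 at 53.6 and 67.0 CPM, against 81.4 to 97.6 CPM in the other 10.

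**Figure D3:**
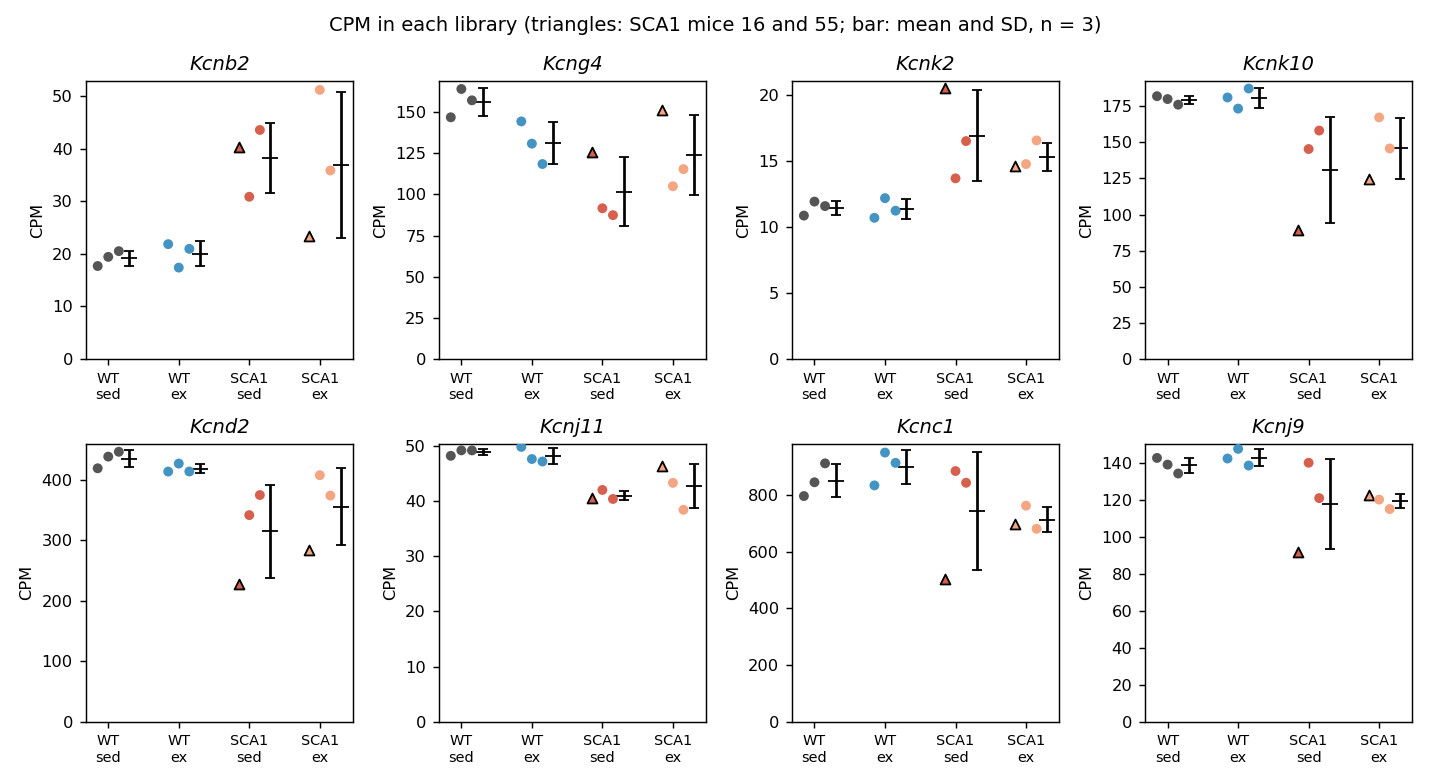
CPM of 8 members in each library, with 3 mice per group as points, SCA1 mice 16 and 55 as triangles, and the mean and SD of each group beside them on axes that start at 0. For Kcnb2 and Kcnk2 all SCA1 points lie above all WT points, and for Kcnk10, Kcnd2 and Kcnj11 they all lie below.

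Of the Kv3 genes, Kcnc1, encoding Kv3.1, was at 796 to 949 CPM in WT mice, at 505 CPM in mouse 16 and at 680.5 to 884 CPM in the other SCA1 mice (log2FC -0.26, adjusted p = 0.515 with edgeR; -0.13 without that pair). Kcnc4 overlapped between the genotypes (log2FC 0.11, adjusted p = 0.843 with edgeR), and its value crossed 0 without that pair (-0.17, adjusted p = 0.474 with edgeR). Kcnc2, found at 55.1 and 26.99 CPM in mice 16 and 55, was at 3.51 to 16.8 CPM in the other 10, and its log2FC of 1.30 became -0.04 without that pair.

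Among the Kv1 genes, those of high level differed little between groups. Kcna1 was between 304 and 353 CPM in all 12 mice, with a log2FC of 0.03 (SE 0.0634, adjusted p = 0.884 with edgeR), and Kcna2 had one of 0.02 (SE 0.0992, adjusted p = 0.959 with edgeR). Without mice 16 and 55 these were 0.05 and -0.09. Kcna6 was at 89.3 to 103 CPM in WT mice, at 127 and 124 CPM in mice 16 and 55 and at 71.2 to 84.3 CPM in the other 4 SCA1 mice. Its log2FC was therefore -0.01 with all libraries and -0.25 without the pair (SE 0.0546, adjusted p = 0.0362 with edgeR). Kcna5, at 0.316 to 1.02 CPM in WT mice, was at 3.46 and 1.98 CPM in mice 16 and 55 and 0.917 to 1.44 CPM in the other SCA1 mice. Its log2FC was 1.21 (adjusted p = 0.291 with edgeR), and 0.67 (adjusted p = 0.413) without that pair.

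The M-current gene Kcnq3 overlapped between genotypes, with a log2FC of 0.35 (adjusted p = 0.514 with edgeR), and of 0.11 without mice 16 and 55. The sodium-activated Kcnt1 was at 521 to 737 CPM in WT mice. It was lowest of all 12 in mouse 16 at 307 CPM and in mouse 55 at 427 CPM, and it ran from 524 to 813 CPM in the other SCA1 mice (log2FC -0.11, adjusted p = 0.878 with edgeR; 0.13 without that pair, adjusted p = 0.687). Its relative Kcnt2 was highest in the same pair, at 8.65 and 4.52 CPM against 0.568 to 2.15 CPM in the other 10. Kcnh3, encoding the Kv12.2 channel Elk2, was a low gene. It was at 1.80, 2.18 and 2.45 CPM in WT sedentary, 0.920, 2.59 and 2.43 CPM in WT exercise, 1.20, 1.61 and 1.30 CPM in SCA1 sedentary and 1.03, 0.417 and 0.129 CPM in SCA1 exercise mice. The log2FC over both activity groups was -1.27 (SE 0.372, adjusted p = 0.273 with edgeR), and -1.68 (SE 0.345, adjusted p = 0.0296 with edgeR) without mice 16 and 55, where it was a DEG.

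Across the members, mice 16 and 55 set much of what was high. They were the 2 highest of the 12 libraries for 31 of 62 members (50%), and for 17.1% of all genes tested. They were the 2 lowest for 9 members (14.5%), Kcnd2, Kcnh1, Kcnj3, Kcnj6, Kcnj12, Kcnk3, Kcnk10, Kcnk12 and Kcnt1, and for 13.9% of all genes. Of the 24 tested members below 1 CPM per kb, 21 had a log2FC above 0 over both activity groups (median 0.49), and of the 38 above it 19 did (median 0.00). With that pair left out these were 8 of 23 (median -0.05) and 12 of 38 (median -0.08).

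**Figure D4:**
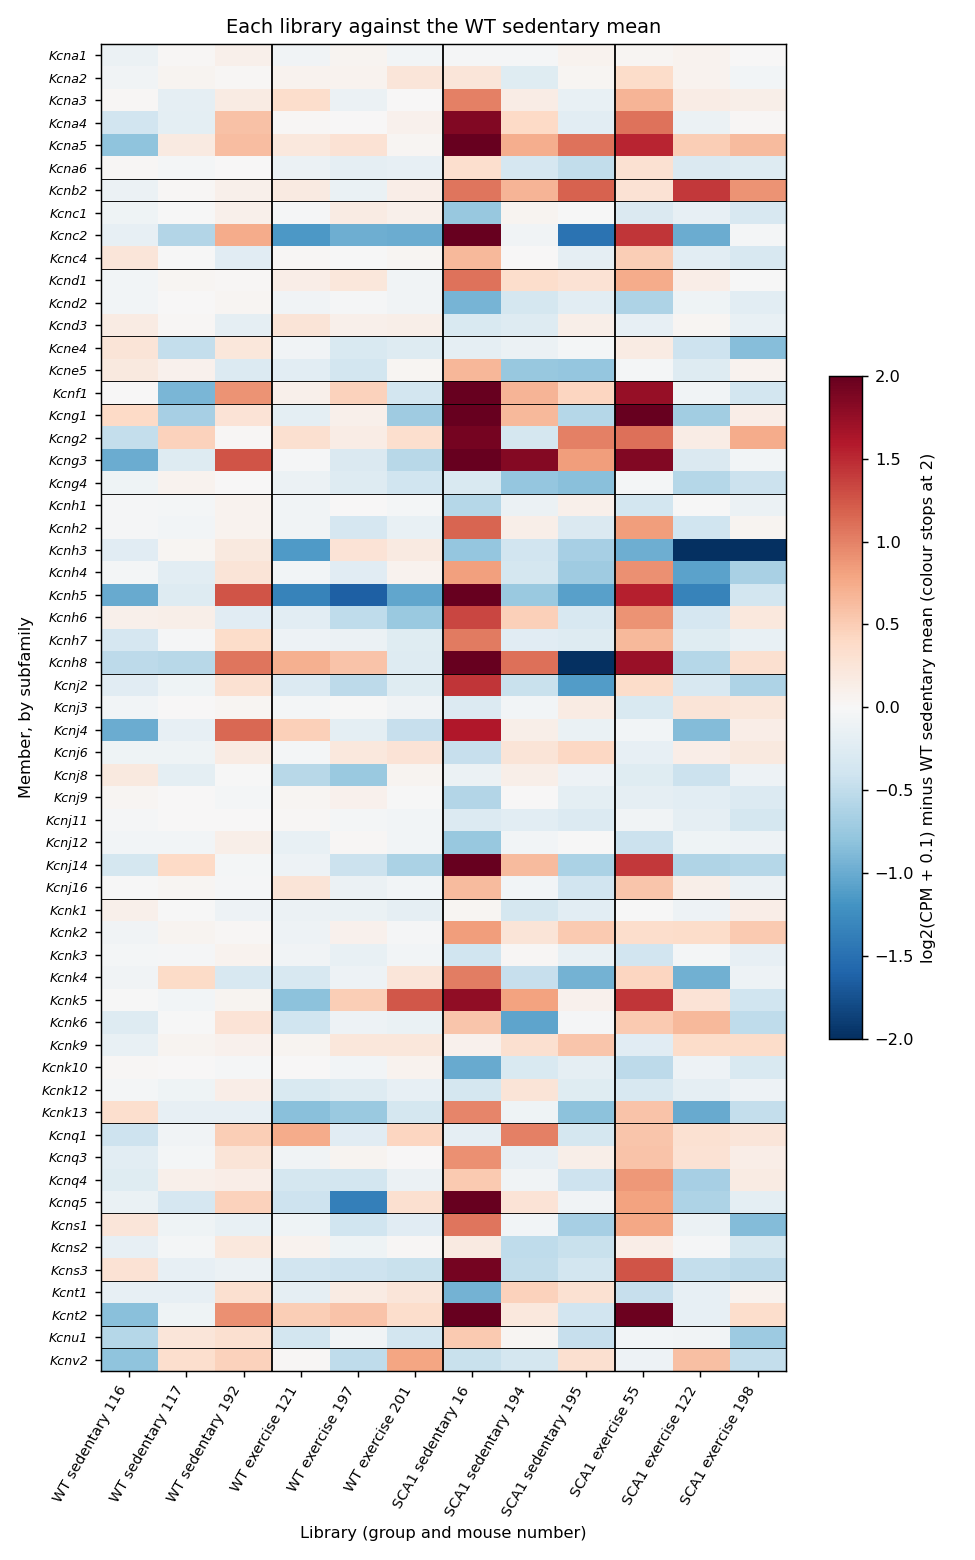
The tested members (rows, by subfamily, without the 3 that are not reported here) in each of the 12 libraries (columns), as log2(CPM + 0.1) minus the mean of the WT sedentary mice. The columns of SCA1 mice 16 and 55 are red for many low members of the Kcnf, Kcng, Kcnh, Kcnj and Kcns subfamilies, while Kcnb2 is red in all 6 SCA1 columns.

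Without mice 16 and 55, a fit on 10 libraries tested 61 members among 20494 genes. Over both activity groups Kcnb2, Kcng4 and Kcnh3 were DEGs, where 0.693% of all genes were. Of the members, 6 were higher at an unadjusted p under 0.05 (Kcna5, Kcnb2, Kcnj3, Kcnj6, Kcnk2 and Kcnk9), against 6.16% of all genes, and 14 were lower, against 5.57%. The lower ones included Kcna6, Kcnd2, Kcng4, Kcnh3, Kcnj9, Kcnj11 and Kcnk10. Between sedentary mice Kcnb2 and Kcng4 were DEGs, where 1% of all genes were, 6 members were higher, against 10.7%, and 10 lower, against 9.51%. Between exercise mice Kcnb2 was the only DEG among the members, where 0.181% of all genes were DEGs. There 3 were higher, Kcnb2, Kcnj3 and Kcnk2, against 2.72% of all genes, and 10 lower, against 4.17%. The SCA1 groups of this fit hold 2 mice each.

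**Figure D5:**
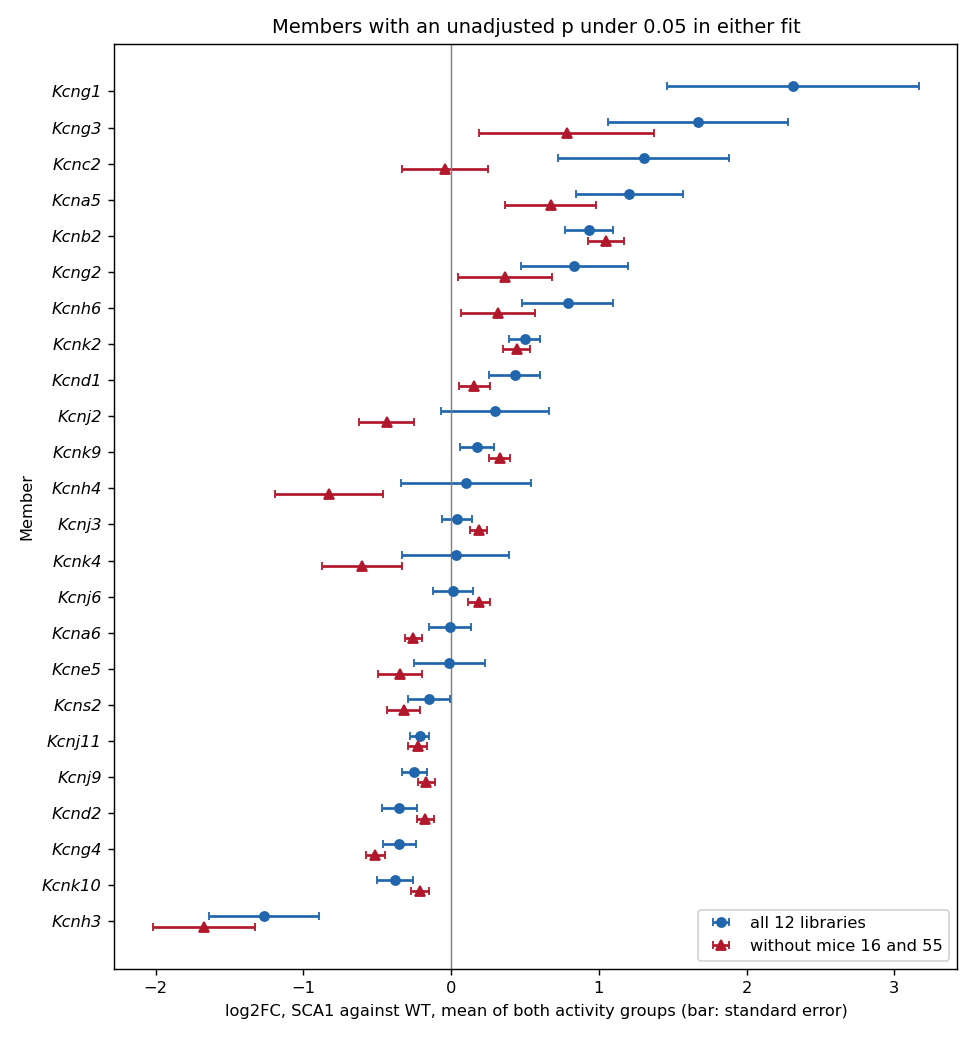
Log2FC between SCA1 and WT mice as the mean of both activity groups, with its standard error, for the members reported here that had an unadjusted p under 0.05 in either fit, with all 12 libraries (circles) and without SCA1 mice 16 and 55 (triangles). Kcnb2, Kcnk2 and Kcnj11 keep values of like size in both fits, and Kcng4 and Kcnh3 lie further below 0 without that pair. Kcnc2, Kcnh4, Kcnj2 and Kcnk4 move across 0, and Kcng1 was not tested without that pair.

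Lists of cell type markers moved with the genotype beside these members. Of 17 Purkinje cell markers, 16 were lower in SCA1 mice over both activity groups, 15 of them at an unadjusted p under 0.05. Their summed level was 9695 to 10940 CPM in WT sedentary mice and 10190 to 10810 CPM in WT exercise mice. It was 6006 to 7933 CPM in SCA1 sedentary mice and 7827 to 9681 CPM in SCA1 exercise mice. All 10 granule cell markers were lower, 4 of them at an unadjusted p under 0.05, with sums of 7128 to 7464 CPM over all WT mice, 3624 to 6716 in SCA1 sedentary and 4829 to 6840 in SCA1 exercise mice. Without mice 16 and 55, 17 of 17 Purkinje cell markers were lower, 14 at an unadjusted p under 0.05, and their median log2FC was -0.41, against -0.36 with all libraries. All 10 granule cell markers were lower in that fit too, 3 of them at an unadjusted p under 0.05, but their median was -0.11, against -0.32 with all libraries, and the sums of the SCA1 mice left ran from 6126 to 6840 CPM. The 8 oligodendrocyte markers crossed 0, with a median log2FC of 0.38 with all libraries (8 higher, 0 at an unadjusted p under 0.05) and -0.10 without that pair (8 lower, 1 at an unadjusted p under 0.05). Of 10 Bergmann glia and astrocyte markers, 7 were lower (3 at an unadjusted p under 0.05) and 3 higher with all libraries (median log2FC -0.16). Without that pair all 10 were lower, 8 at an unadjusted p under 0.05 (median -0.27). All 8 choroid plexus markers were higher, 0 at an unadjusted p under 0.05 (median 0.81), and 7 of 8 without that pair (median 0.37). With all libraries their median was 2.03 between sedentary mice alone and -0.39 between exercise mice. No marker of these cell types was at 0. In tissue RNA, fewer cells of a type and less RNA per cell cannot be told apart, and the part of these cells in the values of the channel genes was not tested.

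The second question was whether wheel running went with other levels of the channel genes. Between WT exercise and WT sedentary mice, 0 members were DEGs (0% of all genes), 0 were higher at an unadjusted p under 0.05 (2.78% of all genes) and 0 were lower (1.91%) by edgeR. DESeq2 gave 0 DEGs (0.179% of the genes tested). At an unadjusted p under 0.05 it gave 1 higher member (1.85% of the genes tested) and 1 lower one (1.32%). Kcna2 lay higher in all 3 exercise mice (557, 561 and 631 CPM) than in all 3 sedentary mice (506, 554 and 539.5 CPM), against 10.1% of all genes. In the other direction 11 members (17.7%) lay lower without overlap, among them Kcna6, Kcnc2, Kcng4, Kcnk1 and Kcnk3, against 11.1% of all genes. With 3 mice against 3 the smallest exact permutation p is 0.1. Cell type markers moved in the same comparison. All 8 choroid plexus markers were higher in WT exercise mice, 7 of them at an unadjusted p under 0.05 (median log2FC 2.88), with sums of 842 to 1953 CPM against 20.1 to 425 CPM in WT sedentary mice. These 8 include Kcne2 and Kcnj13, potassium channel genes that the rule of the members leaves out. Kcne2 was at 5.425 to 9.68 CPM in WT exercise and 0.0755 to 1.67 CPM in WT sedentary mice. Kcnj13 was at 8.72 to 17.3 CPM and 0.981 to 3.98 CPM in the groups of that order. All 8 oligodendrocyte markers were lower (median log2FC -0.45, 0 at an unadjusted p under 0.05), with sums of 2831 to 2970 CPM against 3403 to 4415 CPM, and all 8 microglia markers were lower too (median -0.36, 1 at an unadjusted p under 0.05). Their part in the values of the channel genes was not tested. Kcng4 had a log2FC of -0.25 (SE 0.158, adjusted p = 0.958 with edgeR). Without mice 16 and 55, whose absence alters the shared estimate of the spread, no member was higher (6.49% of all genes) and 4 were lower at an unadjusted p under 0.05 (6.8%), Kcnc2, Kcng4, Kcnh5 and Kcnk13.

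Between SCA1 exercise and SCA1 sedentary mice, 0 members and 0% of all genes were DEGs by edgeR, and 0 members and 0.00285% of the genes tested by DESeq2. At an unadjusted p under 0.05, 0 members were higher (1.19% of all genes) and Kcnh3 was lower (0.978% of all genes), with a log2FC of -1.36 (SE 0.553, adjusted p = 0.999 with edgeR). At an unadjusted p under 0.05 DESeq2 gave 0 higher members (0.681% of the genes tested) and 2 lower ones (0.723%). Without mice 16 and 55, 3 were higher (3.69% of all genes), Kcne5, Kcng4 and Kcnk1, and 4 lower (5.1% of all genes), Kcnc1, Kcng3, Kcnh3 and Kcnt1, with 2 mice in each group. In this comparison with all libraries 16 of 17 Purkinje cell markers were higher in exercise mice, 6 at an unadjusted p under 0.05 (median log2FC 0.28), and 8 of 8 choroid plexus markers, 0 at an unadjusted p under 0.05 (median 0.54). Without mice 16 and 55, 15 of 17 Purkinje cell markers were higher, 5 at an unadjusted p under 0.05 (median 0.09). Of the choroid plexus markers 5 were then higher and 3 lower, 0 at an unadjusted p under 0.05 (median 0.09). The 2 exercise comparisons share no mouse, and 34 of 62 members (54.8%) had the same direction in both, against 53.8% of all genes. Taken over both genotypes, 0 members and 0% of all genes were DEGs, 0 were higher at an unadjusted p under 0.05 (2.16% of all genes) and 0 lower (1.39%) by edgeR. DESeq2 gave 0 DEGs there (0.0171% of the genes tested). At an unadjusted p under 0.05 it gave 1 higher member (1.3% of the genes tested) and 2 lower ones (1.08%). The log2FC of Kcnb2 for exercise was 0.06 in WT mice and -0.06 in SCA1 mice.

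The third question was whether the response to exercise differed between the genotypes, as an interaction. By edgeR 0 members and 0% of all genes were DEGs, and DESeq2 gave 0 members (0.0057% of the genes tested). At an unadjusted p under 0.05 Kcng4 was the only member with a positive interaction (1.57% of all genes), and no member had a negative one (2.21% of all genes). The Kcng4 interaction was 0.54 (SE 0.224, unadjusted p = 0.0332, adjusted p = 1.00 with edgeR). Its level went from 156 to 131 CPM with exercise in WT mice and from 102 to 124 CPM in SCA1 mice, as group means. With mice 16 and 55 left out the interaction was 0.54 (unadjusted p = 0.00107, adjusted p = 0.164 with edgeR), among 6 positive members (6.86% of all genes) and 4 negative ones (7.92% of all genes). With all 12 libraries the interaction was positive for 17 of 17 Purkinje cell markers, 7 at an unadjusted p under 0.05 (median 0.30). It was negative for 8 of 8 choroid plexus markers, 3 at an unadjusted p under 0.05 (median -2.35). Without mice 16 and 55, 13 of 17 Purkinje cell markers were positive, 5 at that limit (median 0.13). All 8 choroid plexus markers were negative in that fit too, 6 at that limit (median -2.72). The 8 oligodendrocyte markers were all positive in both fits. Their median was 0.43 with all libraries (0 at that limit) and 0.67 without that pair (8 at that limit). The part of these cell types in the Kcng4 value was not tested.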

How the data were processed

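Cerebellar RNA of 12 mice, 3 in each of 4 groups by the labels, was sequenced in read pairs of 151 bases with a strand-specific kit. The authors trimmed reads with fastp 0.24.0 and aligned and counted them on GRCm39 with STAR 2.7.10a, and deposited raw counts per gene (submitters' processing notes; FastQC 0.11.9 for quality). The annotation release of these counts is not given in the sources used here; 56323 of 56941 gene IDs were matched to GENCODE M39. Per the study's methods, a pair of samples of lower RNA integrity had a shorter fragmentation; which they were is not given in the sources used here. The reverse-strand counts were used, 20556802 to 32127508 per library, with pairs outside genes left out (39.3% to 58.7% without a feature).

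One model of the 4 groups was fitted with edgeR 4.0.16 (R 4.3.3; filterByExpr, TMM, quasi-likelihood test) to 20341 genes, with Benjamini-Hochberg adjustment over all of them and 7 comparisons. The study used DESeq2, run here as an alternative (1.42.0). Permutation tests were exact and two-sided on mean log2 CPM. Scripts were tested on simulated data. Members and lists were chosen with earlier results of these data known. Named members were DEGs, up to 8 members with the smallest unadjusted p under 0.05 per comparison, the highest of each subfamily and a list of well-known cerebellar channels; others appear in counts of 5 or fewer or as examples chosen after their values were seen. The values of 3 tested members are not reported here, though counts and sums over all members include them. The labels name separate mice, so p-values measure the spread between mice. Alternatives were RLE size factors, edgeR on the 2 groups compared, no filter beyond 1 count, a filter of 10 counts in each of the libraries, counts without regard to strand, the mean level of 4 chromosome Y genes as a covariate, mice 16 and 55 left out, and each mouse left out in turn.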

Additional observations from a re-analysis of the deposited data

How the results depend on the processing

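All 21 log2FC values of members named by their p kept their direction under every alternative run, at most 20 each. Of these 21 values, 7 were called under at least 1 alternative. They were picked for the smallest unadjusted p in the same libraries, which favours a kept direction, so this says little about other members. Kcnc2, not among them, had an unadjusted p under 0.05 with edgeR over both activity groups, and its log2FC crossed 0 without mice 16 and 55. Kcnb2 over both activity groups had an adjusted p of 4.08e-05 with DESeq2 and of 0.0017 with genes of at least 1 count. It had 0.0413 without SCA1 sedentary mouse 16, 0.00345 without SCA1 exercise mouse 55 and 0.0535, 0.0508, 0.0554 and 0.0879 with RLE size factors, a filter of 10 counts in each library, unstranded counts and the chromosome Y covariate with edgeR. Over the fits that left out 1 mouse its log2FC ran from 0.77 to 1.06.

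The count of members that were DEGs, 0 in each comparison, was 3 between sedentary mice with DESeq2, 1 with genes of at least 1 count and 2 without mice 16 and 55, and over both activity groups 2, 1 and 3 in that order. Between exercise mice it was 1 without mice 16 and 55. Leaving out 1 mouse gave 0 to 1 between sedentary mice (1 without SCA1 exercise mouse 55) and 0 to 1 over both activity groups (1 without SCA1 sedentary mouse 16 or SCA1 exercise mouse 55).

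The count at an unadjusted p under 0.05 between sedentary mice, 11, was 20 with genes of at least 1 count, and 7 to 25 with 1 mouse left out (7 without WT sedentary mouse 116, 18 and 25 without SCA1 sedentary mice 194 and 195). Between exercise mice it was 3, and 12 with edgeR on the 2 groups, 7 with genes of at least 1 count, 13 without mice 16 and 55, 7 with the chromosome Y covariate and 2 to 11 with 1 mouse left out (11 and 6 without SCA1 sedentary mice 16 and 195, 7 and 8 without mice 55 and 122 of the SCA1 exercise group). With both activity groups together it was 16, and became 30 with genes of at least 1 count or 11 to 30 with 1 mouse left out (30 without SCA1 sedentary mouse 195).

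For exercise in WT mice the count of 0 was 2 with DESeq2, 7 with edgeR on the 2 groups, 3 with genes of at least 1 count, 4 without mice 16 and 55 and 0 to 2 with 1 mouse left out (2 without SCA1 sedentary mouse 16, 1 without WT exercise mouse 201 or SCA1 sedentary mouse 194). In SCA1 mice the count of 1 was 2 with DESeq2, 0 with edgeR on the 2 groups, 3 with genes of at least 1 count, 0 with a filter of 10 counts in each library, 7 without mice 16 and 55, 2 with the chromosome Y covariate and 0 to 11 with 1 mouse left out (10 and 11 without mice 16 and 55, 5 without SCA1 sedentary mouse 195, 0 without SCA1 sedentary mouse 194 or SCA1 exercise mouse 198). Over both genotypes the count of 0 was 3 with DESeq2, 6 with genes of at least 1 count, 1 with unstranded counts, 4 without mice 16 and 55, 2 with the chromosome Y covariate and 0 to 7 with 1 mouse left out (7 and 5 without mice 55 and 195, 1 without mouse 16 or WT exercise mouse 201). For the interaction the count of 1 was 2 with unstranded counts, 10 without mice 16 and 55, 2 with the chromosome Y covariate and 0 to 10 with 1 mouse left out (10 without mouse 16, 2 without mice 192, 121 or 122, 0 without mice 117 or 201). Shares of all genes moved as well. Between sedentary mice they were 5.55% higher and 4.55% lower with all libraries, and 10.7% and 9.51% without mice 16 and 55. For exercise over both genotypes they were 2.16% and 1.39% with all libraries, and 3.32% and 3.16% without that pair. Shares under most other alternatives are not given here, so these counts describe the fits and are no result about the members. The cause of these shifts was not tested. No paired analysis was possible because the mouse numbers are not shared between groups. With 3 mice a group, a change in a low member could go unseen.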
